A study of Homo sapiens with 27 samples.

Results

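The 42 genes described here are those that carry glucose to lactate, plus genes of the cell's response to low oxygen. They were chosen by name, from their known roles in glucose uptake, glycolysis, lactate handling, the hypoxia-inducible factors (HIF) and the targets of these factors. The rule used no measured value, though earlier results of these data were known when it was set. All 42 of them were found among the 58721 rows of the count table, and all 42 were among the 25199 genes that kept enough counts to be tested. They were followed across 27 RNA sequencing libraries of A375, an established line from a human melanoma whose BRAF kinase is mutant and constantly active. TADA2B knockout cells made with guide 1, TADA2B knockout cells made with guide 2, and control cells with a guide against GFP were each treated for 24 h. They were given trametinib at 20 nM, which blocks the kinase MEK, vemurafenib at 1 µM, which blocks mutant BRAF, or DMSO, the solvent alone. Each of the 9 combinations had 3 libraries. TADA2B belongs to SAGA, a coactivator complex with histone acetyltransferase activity. The labels say neither if a knockout population is a clone or a pool, nor if the 3 libraries of a group are separate cultures. The p-values therefore rest on a spread between libraries that may be purely technical.

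Glycolysis splits glucose into pyruvate in the cytosol, and lactate dehydrogenase then turns pyruvate into lactate, which leaves the cell through monocarboxylate transporters. Many cancer cells run this route fast even with oxygen present, and in melanoma driven by BRAF the MAPK cascade is known to sustain it. The alpha subunits HIF1A and EPAS1 are marked for destruction by EGLN prolyl hydroxylases when oxygen is available. When oxygen is low they persist, pair with ARNT, and bind the core motif of the hypoxia response element next to many glycolytic genes and other targets. These cultures were not labelled as grown in low oxygen, and mRNA levels do not report HIF protein or glycolytic flux.

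Library totals lay between 67502300 and 92513726 counts, and the common biological coefficient of variation was 4.02%. DUSP6, a phosphatase that ERK induces, averaged 1.05 CPM (counts per 1000000 counts of the library, after scaling) with trametinib and 13.8 CPM with vemurafenib in control cells, against 147 CPM in DMSO. TADA2B itself kept its transcript in DMSO, at 30.4 ± 0.773 CPM with guide 1 and 28.6 ± 1.21 CPM with guide 2, against 31.2 ± 0.931 CPM in control cells (SD, n = 3 each), and lay between 27.3 and 45.2 CPM over all 27 libraries, so its mRNA level does not check the knockout label. Of the melanoma markers, SOX10 lay between 267 and 1120 CPM and MITF between 52.1 and 152 CPM, while MLANA, PMEL and TYR never passed 2.08, 2.34 and 0.281 CPM. The 10 melanoma and melanocyte markers summed to 397 to 629 CPM in knockout libraries in DMSO against 1070 to 1140 CPM for control libraries with DMSO, and to 520 to 875 CPM in knockout libraries given a drug, against 2330 to 2460 CPM in control libraries given a drug. SOX10 made up most of the DMSO sums, at means of 367 CPM in knockout and 884 CPM in control cells. The list did not move as a whole. In knockout cells in DMSO, MLANA, PMEL and TFAP2A were higher (log2 0.73, 0.38 and 0.52), while SOX10, MITF, DCT, S100B, S100A1 and PAX3 were lower. DCT alone ranged from 0.128 to 1060 CPM over all libraries. Markers of other cell types moved too. The 6 fibroblast markers summed to 59.3 to 75.5 CPM in knockout DMSO libraries, against 32.8 to 33.9 CPM in control DMSO libraries, and to 97.0 to 139 CPM in knockout libraries given a drug, against 57.1 to 63.5 CPM in control libraries given a drug, with COL1A2 at most at 0.273 CPM. The 5 leukocyte markers summed to at most 36.5 CPM, with CD3E at most at 0.0889 CPM, the 5 endothelial markers to at most 23.4 CPM, and the 6 keratinocyte markers to 44.7 to 63.6 CPM, with KRT1 at 0. Other genes of these lists were expressed. The highest of each list reached 60.7 CPM for PDGFRB (fibroblast), 35.8 CPM for LYZ (leukocyte), 17.0 CPM for KDR (endothelial) and 55.1 CPM for KRT10 (keratinocyte). Mitochondrially encoded genes took 1.58% to 1.68% of counts in control DMSO libraries and up to 3.60% elsewhere. The part of these shifts in the results below was not tested.

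To show the letters that the hypoxia factors read, the 250 bases before the RefSeq start of 6 members follow, chosen because these genes take different courses in the results below. LDHA, PGK1, ENO1 and BNIP3 fell with both drugs in control cells, CA9 fell furthest in control cells, and KDM3A rose. They are from RefSeq on GRCh38.p14, 5′ to 3′ on the gene's strand, and capitals mark ACGTG or GCGTG on either strand (CACGT or CACGC when read from the other strand). The gene spans given below are GENCODE's and begin at the outermost annotated transcript, so the windows of PGK1, ENO1 and KDM3A lie inside the gene span and those of LDHA, BNIP3 and CA9 reach into it.
LDHA before the RefSeq start, chr11:18394313-18394562, plus strand: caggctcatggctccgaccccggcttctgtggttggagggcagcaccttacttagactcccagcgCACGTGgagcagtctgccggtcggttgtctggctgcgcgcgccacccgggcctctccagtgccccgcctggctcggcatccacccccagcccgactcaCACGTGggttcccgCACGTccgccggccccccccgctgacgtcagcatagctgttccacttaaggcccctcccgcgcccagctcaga
PGK1 before the RefSeq start, chrX:78103998-78104247, plus strand: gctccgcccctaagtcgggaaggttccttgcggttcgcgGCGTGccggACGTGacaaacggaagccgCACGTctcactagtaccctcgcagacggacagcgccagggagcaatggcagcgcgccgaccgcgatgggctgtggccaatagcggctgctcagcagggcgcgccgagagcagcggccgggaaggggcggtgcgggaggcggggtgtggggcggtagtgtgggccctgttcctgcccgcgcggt
ENO1 before the RefSeq start, chr1:8878687-8878936, minus strand: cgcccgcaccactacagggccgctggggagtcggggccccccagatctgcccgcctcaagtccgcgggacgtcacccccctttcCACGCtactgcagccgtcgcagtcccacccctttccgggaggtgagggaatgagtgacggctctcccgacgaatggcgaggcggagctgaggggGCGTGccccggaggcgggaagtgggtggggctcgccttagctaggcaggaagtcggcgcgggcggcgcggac
BNIP3 before the RefSeq start, chr10:131981924-131982173, minus strand: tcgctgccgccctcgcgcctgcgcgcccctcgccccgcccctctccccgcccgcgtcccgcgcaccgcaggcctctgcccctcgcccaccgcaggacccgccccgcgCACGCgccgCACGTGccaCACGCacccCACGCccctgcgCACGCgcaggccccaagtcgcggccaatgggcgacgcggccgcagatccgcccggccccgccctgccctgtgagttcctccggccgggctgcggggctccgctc
CA9 before the RefSeq start, chr9:35673678-35673927, plus strand: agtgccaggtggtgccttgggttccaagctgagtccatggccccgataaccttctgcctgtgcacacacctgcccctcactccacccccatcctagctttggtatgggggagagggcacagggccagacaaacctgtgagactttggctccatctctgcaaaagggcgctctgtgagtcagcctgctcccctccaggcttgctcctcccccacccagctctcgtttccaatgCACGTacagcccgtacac
KDM3A before the RefSeq start, chr2:86441121-86441370, plus strand: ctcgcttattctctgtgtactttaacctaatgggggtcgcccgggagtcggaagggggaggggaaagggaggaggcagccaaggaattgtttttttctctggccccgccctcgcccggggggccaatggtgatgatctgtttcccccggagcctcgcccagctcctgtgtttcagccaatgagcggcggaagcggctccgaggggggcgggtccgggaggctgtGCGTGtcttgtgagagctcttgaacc
LDHA held 5 such matches before that start, BNIP3 6, PGK1 3, ENO1 2, and CA9 and KDM3A 1 each. Each palindromic CACGTG was counted once per strand. LDHA held 2 of these and BNIP3 1, so both have fewer separate marked stretches than matches. RefSeq windows of 250 bases before to 50 bases after the start were found for 36 of the 42 members. ACGTG or GCGTG stood on either strand in 28 of these 36 windows (77.8%), and in 48.4% of all 27303 windows of that length. For ACGTG alone the counts were 15 of 36 (41.7%) against 21.6% of all windows, for GCGTG alone 20 of 36 (55.6%) against 36.3%, and for the palindrome CACGTG, which contains ACGTG, 5 of 36 (13.9%) against 7.44%. These are matches of letters in a window, not bound sites, and no test was made of them. The members were chosen by roles that include known HIF targets, and the windows of all genes were not matched to theirs for base content.

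**Figure D1:**
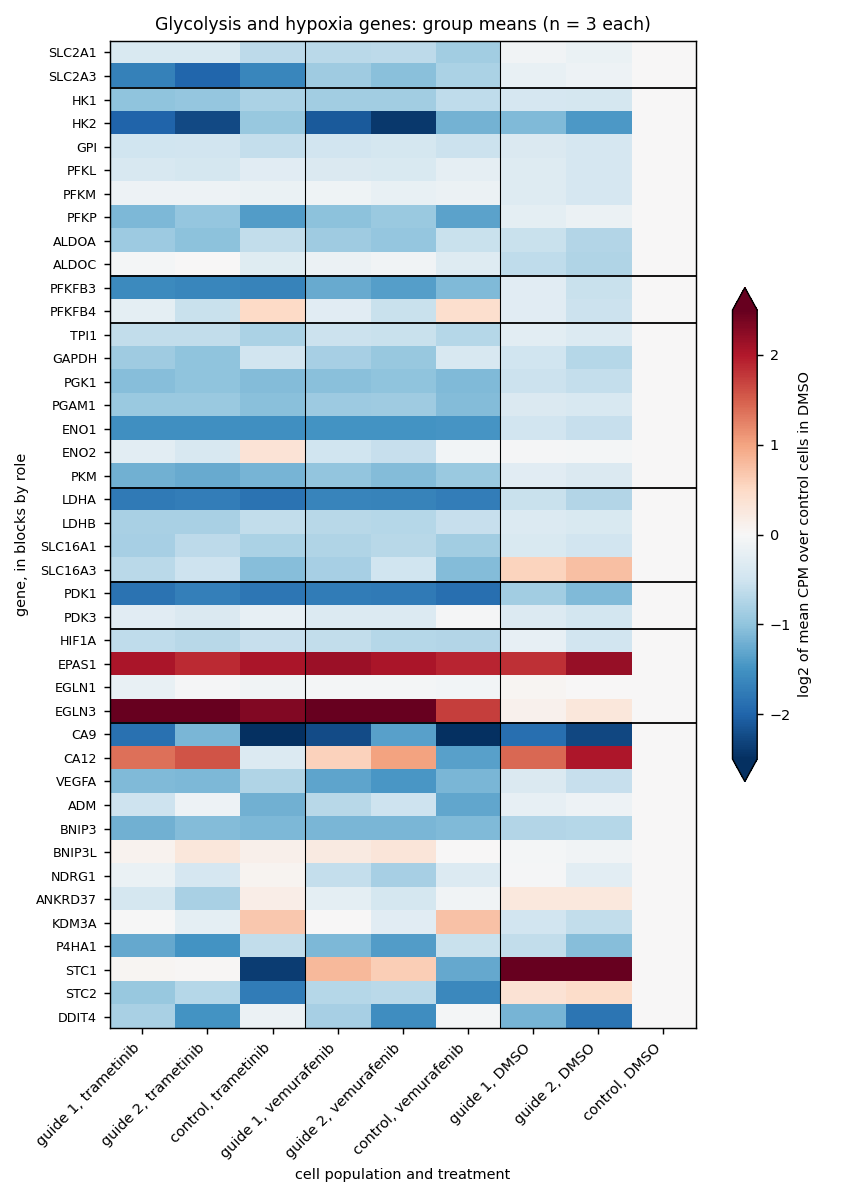
log2 of each member's mean CPM in each of the 9 groups over its mean CPM in control cells in DMSO, for the 42 members. Genes are in rows ordered by role and groups in columns. Control cells in DMSO are the reference column. Most glycolytic rows, such as LDHA and ENO1, lie below the reference in the other groups, and EPAS1 lies above it.

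MEK and BRAF inhibition lowered nearly the whole route from glucose to lactate in control cells. Of the 25 glycolysis and transport genes, 23 fell and 2 rose with trametinib, and 22 fell, 1 rose and 2 were not called with vemurafenib. Over all 42 members, 33 fell and 7 rose with trametinib, where 32.5% of all genes tested were called lower and 36.4% higher. With vemurafenib 32 fell and 4 rose, beside 31.6% and 35.7% of all genes. Scaling by library totals alone moved the median of all genes to 0.24 with trametinib and 0.22 with vemurafenib, and left 29 members lower and 9 higher and 30 members lower and 9 higher. The median member stood at log2 -0.64 with trametinib and -0.72 with vemurafenib, against 0.06 over all genes in both. Summed, the 25 genes took 1.02% ± 0.0156 of all counts with trametinib and 1.06% ± 0.0033 with vemurafenib, against 1.70% ± 0.0241 in DMSO (SD, n = 3 each). A gene was called when its p in edgeR's quasi-likelihood test, adjusted over all genes tested, was under 0.05. In bulk RNA, a lower level per cell and fewer cells expressing a gene cannot be told apart.

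LDHA and PDK1 had the largest falls of the 25 genes with either drug. LDHA (ENSG00000134333, chromosome 11, 18394388 to 18408425, plus strand, hg38), the lactate dehydrogenase subunit that favours lactate, had 445, 452 and 461 CPM with trametinib and 499, 482 and 483 CPM with vemurafenib, against 1587, 1604 and 1672 CPM in DMSO. Every drug library lay below every DMSO library. LDHA fell 3.58-fold with trametinib (log2 -1.84 ± 0.027, adjusted p = 4.6e-45) and 3.32-fold with vemurafenib (log2 -1.73 ± 0.027, adjusted p = 6.3e-44). PDK1 (ENSG00000152256, chromosome 2, 172555373 to 172608669, plus strand) phosphorylates and so inhibits pyruvate dehydrogenase. It had 12.3, 10.4 and 10.3 CPM with trametinib and 10.8, 9.88 and 10.4 CPM with vemurafenib, against 39.2, 36.6 and 40 CPM in DMSO, falls of log2 -1.81 ± 0.067 and -1.90 ± 0.068 with no overlap. ENO1, the enolase of most tissues, had 1186, 1185 and 1241 CPM with trametinib and 1270.0, 1241 and 1232 CPM with vemurafenib, against 3397, 3486 and 3591 CPM in DMSO, and fell by 1.54 and 1.48 on the log2 scale. The other enzymes of lower glycolysis followed with smaller falls. PKM, pyruvate kinase, changed by log2 -1.17 ± 0.03 with trametinib and -0.94 ± 0.03 with vemurafenib, PGK1, the first step that yields ATP, by -1.09 ± 0.028 and -1.11 ± 0.028, PGAM1, the mutase after it, by -1.05 and -1.09, TPI1, the triose isomerase, by -0.79 and -0.71, and GAPDH by -0.48 ± 0.03 and -0.40 ± 0.03. GAPDH, often used to normalize other measurements, thus averaged 3784 ± 92.3 CPM with trametinib and 4001 ± 72.5 CPM with vemurafenib, against 5275 ± 94.4 CPM in DMSO.

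The glucose transporters among the members, SLC2A1 and SLC2A3, and the regulatory enzymes of upper glycolysis fell as well. Other glucose transporters are among the further isoforms listed below, most of which rose. SLC2A3, the high-affinity transporter GLUT3, had 34.2, 33.2 and 32.8 CPM with trametinib and 62.8, 56.6 and 58.9 CPM with vemurafenib, against 104, 98.2 and 107 CPM in DMSO. All libraries of the drug groups lay below those in DMSO, and the fall was 3.08-fold with trametinib and 1.73-fold with vemurafenib. SLC2A1, the basal transporter GLUT1, changed by log2 -0.65 ± 0.035 with trametinib and -0.88 ± 0.035 with vemurafenib. HK2, the inducible hexokinase, changed by -0.94 ± 0.032 and -1.17 ± 0.032, and HK1, the constitutive one, by -0.79 ± 0.027 and -0.63 ± 0.027. Among the phosphofructokinase subunits, which catalyse the committed step, PFKP had 65.4, 65.5 and 71.9 CPM with trametinib, against 171, 177 and 184 CPM in DMSO, and changed by log2 -1.39 ± 0.036 with trametinib and -1.34 ± 0.036 with vemurafenib. PFKL changed by -0.28 and -0.23, and PFKM by -0.15 with either drug, a fall that turned to 0.03 with trametinib, not called, when library totals alone set the scale. GPI, the isomerase between hexokinase and phosphofructokinase, changed by -0.59 and -0.54, and the aldolases by -0.62 and -0.56 for ALDOA and -0.31 and -0.32 for ALDOC. ALDOA shares 42.3% of its exon bases with a same-strand gene, AC093512.2, so some of its reads could be lost to ambiguity.

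The pair of enzymes that set the level of the activator of phosphofructokinase parted. PFKFB3, which mostly makes that activator, had 53.8, 53.3 and 56.6 CPM with trametinib and 81.6, 79.9 and 82.3 CPM with vemurafenib, against 174, 174 and 173 CPM in DMSO (log2 -1.67 ± 0.033 and -1.10 ± 0.032). PFKFB4, its relative, which both makes and removes it, had 188, 178 and 194 CPM with trametinib and 181, 180.4 and 173 CPM with vemurafenib, against 132, 129 and 136 CPM in DMSO. Every drug library of PFKFB4 was above every DMSO library (log2 0.50 ± 0.037, adjusted p = 1.4e-16 with trametinib, and log2 0.42 ± 0.037 with vemurafenib). ENO2, the neuronal enolase, was the other gene of the 25 that rose with trametinib (log2 0.33 ± 0.034), and with vemurafenib it was not called (log2 -0.06 ± 0.034, adjusted p = 0.12). The members that handle lactate also fell. SLC16A1 (MCT1) changed by -0.80 ± 0.032 and -0.86 ± 0.032, SLC16A3 (MCT4), known for lactate export, by -1.06 ± 0.079 and -1.09 ± 0.079, and LDHB, the subunit that favours pyruvate, by -0.62 ± 0.041 and -0.58 ± 0.041. PDK3, a second kinase of pyruvate dehydrogenase, fell by 0.20 on the log2 scale with trametinib (not called at -0.02 with library totals alone) and was not called with vemurafenib.

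**Figure D2:**
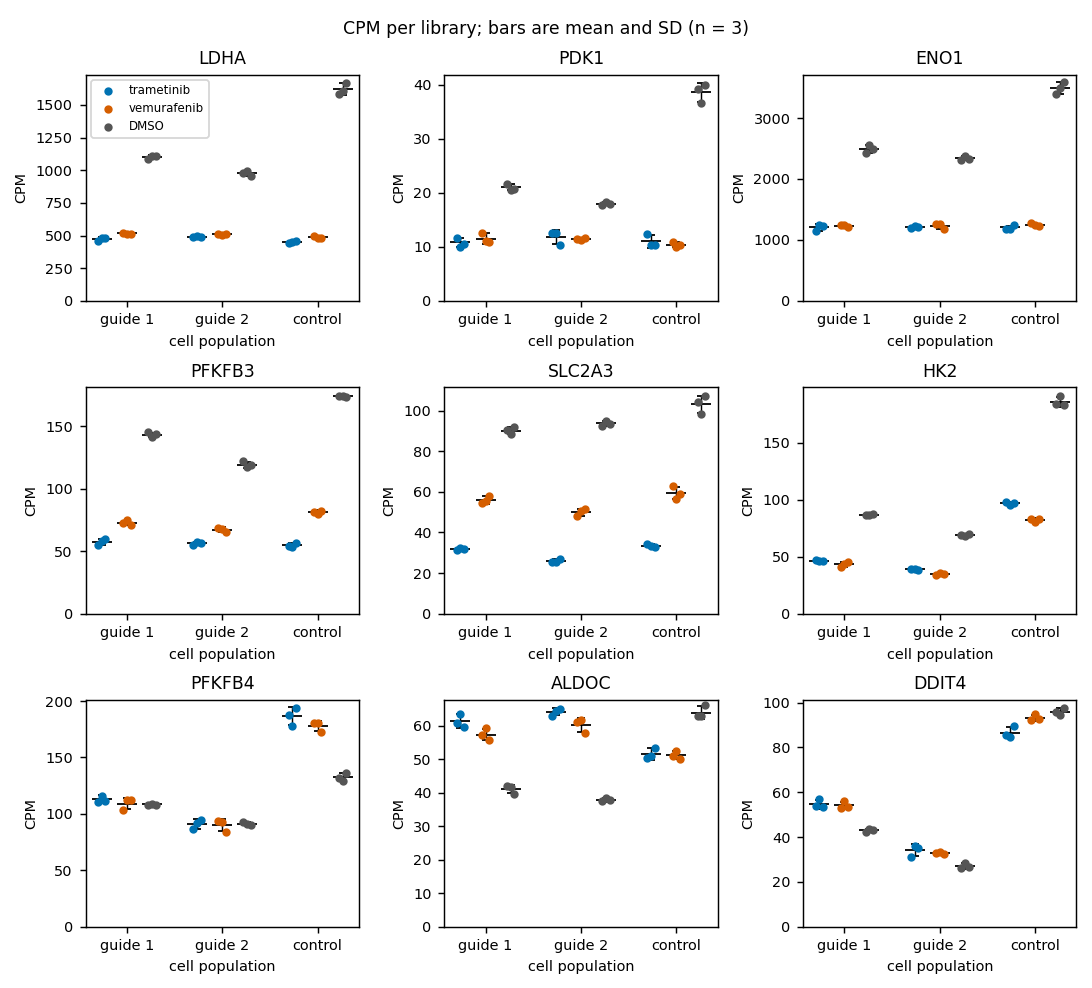
CPM per library of LDHA, PDK1, ENO1, PFKFB3, SLC2A3, HK2, PFKFB4, ALDOC and the hypoxia target DDIT4, with the mean and SD of the 3 libraries of each group. Guide 1, guide 2 and control cells are on the x axis and trametinib, vemurafenib and DMSO in colours. For LDHA the 3 control DMSO libraries stand above all others, and the drug groups of all populations lie close together.

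The hypoxia arm split. HIF1A, the widely expressed alpha subunit, fell by 0.57 with trametinib and 0.74 with vemurafenib on the log2 scale. EPAS1 (ENSG00000116016, chromosome 2, 46293667 to 46386703, plus strand), which encodes HIF-2 alpha, had 31.5, 30.1 and 30.5 CPM with trametinib and 28.9, 26.5 and 28.5 CPM with vemurafenib, against 7.21, 7.8 and 7.33 CPM in DMSO. EPAS1 thus rose 4.11-fold and 3.75-fold with no overlap (log2 2.04 ± 0.056, adjusted p = 1e-33, and log2 1.91 ± 0.057, adjusted p = 2.3e-32). EGLN3, a prolyl hydroxylase that HIF itself induces, had 3.2, 3.98 and 4.59 CPM with trametinib and 2.55, 2.46 and 2.82 CPM with vemurafenib, against 0.527, 0.895 and 0.933 CPM in DMSO, where it rested on 38, 69 and 65 counts. It rose 4.97-fold with trametinib (log2 2.31 ± 0.15) and 3.32-fold with vemurafenib (log2 1.73 ± 0.16). EGLN1, the main hydroxylase in most cells, stood at log2 -0.09 ± 0.035 with trametinib, a call that was lost without DMSO replicate 1 (-0.09) or trametinib replicate 2 (-0.08) and turned to a call of 0.09 with library totals alone, and it was not called with vemurafenib.

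Among the 13 hypoxia targets, 8 fell and 3 rose with trametinib, and 9 fell and 1 rose with vemurafenib, beside 32.5% of all genes lower and 36.4% higher with trametinib and 31.6% and 35.7% with vemurafenib. CA9 (ENSG00000107159, chromosome 9, 35673856 to 35681159, plus strand), a surface carbonic anhydrase that disposes of acid, had 0.281, 0.241 and 0.231 CPM with trametinib and 0.205, 0.208 and 0.307 CPM with vemurafenib, against 3.61, 3.59 and 3.49 CPM in DMSO. All 6 drug libraries lay far below the 3 DMSO libraries, on counts of 23, 20 and 17 with trametinib against 260, 277 and 243 in DMSO, a change of log2 -3.82 ± 0.19 with trametinib and -3.88 ± 0.2 with vemurafenib. CA9 shares 38.5% of its exon bases with ARHGEF39 on the opposite strand, which lay between 4.07 and 19.8 CPM and itself changed by log2 -2.12 ± 0.086 with trametinib and -1.95 ± 0.085 with vemurafenib. The strand setting of the counting is not stated in the labels, so reads of the pair cannot be told apart with certainty. STC1, a secreted glycoprotein hormone, had 5.05, 4.73 and 4.79 CPM with trametinib and 9.74, 11.2 and 10.3 CPM with vemurafenib, against 25.4, 24.3 and 25.7 CPM in DMSO (log2 -2.37 ± 0.055 and -1.27 ± 0.049). Its relative STC2 changed by -1.75 ± 0.091 and -1.61 ± 0.09, ADM, the vasodilator peptide adrenomedullin, by -1.21 ± 0.11 and -1.30 ± 0.11, BNIP3, a receptor for clearing mitochondria, by -1.12 ± 0.04 and -1.10 ± 0.04, and VEGFA, the angiogenic growth factor, by -0.74 ± 0.048 and -1.14 ± 0.049. P4HA1, a collagen prolyl hydroxylase subunit, changed by -0.60 and -0.54.

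KDM3A, a histone demethylase, went the other way. It had 121, 119 and 122 CPM with trametinib and 125, 126 and 126 CPM with vemurafenib, against 75.9, 77.6 and 74.3 CPM in DMSO. Neither drug group overlapped DMSO (log2 0.66 ± 0.032 and 0.73 ± 0.032). BNIP3L, a relative of BNIP3, stood at log2 0.12 ± 0.04 with trametinib, a call lost without trametinib replicate 1 (0.10), and was not called with vemurafenib. NDRG1, a stress-induced protein, fell by 0.34 on the log2 scale with vemurafenib. With trametinib NDRG1 stood at 0.08 ± 0.032, a call lost without DMSO replicate 1 (0.07), DMSO replicate 2 (0.07) or trametinib replicate 3 (0.06). DDIT4, an inhibitor of the growth kinase complex mTORC1, stood at -0.15 ± 0.039 with trametinib, a called fall that turned to 0.04, not called, with library totals alone. With vemurafenib DDIT4 was not called. CA12, a second surface carbonic anhydrase, had a mean of at most 0.426 CPM in control groups and was called with vemurafenib (log2 -1.34 ± 0.31) but not with trametinib (log2 -0.32 ± 0.28, adjusted p = 0.3). ANKRD37, an ankyrin repeat protein that HIF induces, was called with neither drug (log2 0.17 ± 0.13 and -0.10 ± 0.13).

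**Figure D3:**
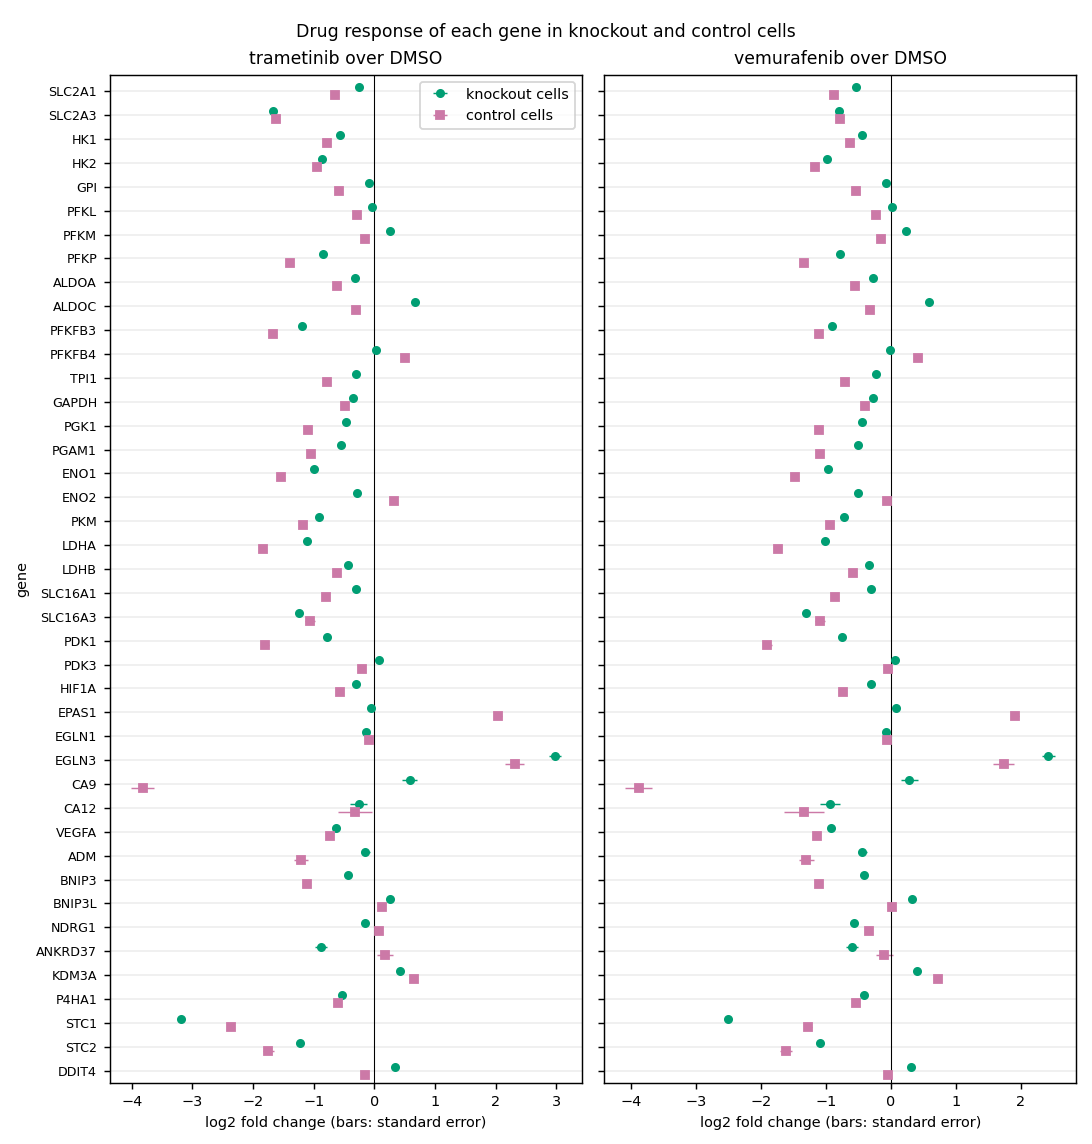
log2 fold change of each member with trametinib (left) and vemurafenib (right) over DMSO, with standard errors as bars, in knockout cells (mean of both guides) and in control cells. In control cells CA9 stands at -3.82 with trametinib, and in knockout cells at 0.58, and for most glycolysis genes the control point lies further left than the knockout point.

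The TADA2B knockout in DMSO also had lower transcript levels along most of the route from glucose to lactate. Of the 25 glycolysis and transport genes, 23 fell, 1 rose and 1 was not called. Over all 42 members, 31 fell and 6 rose, where 28.6% of all genes tested were called lower and 29.3% higher. The median member stood at log2 -0.38, against 0.00 over all genes. The 25 genes took 1.37% ± 0.0118 of counts with guide 1 and 1.30% ± 0.00568 with guide 2, against 1.70% ± 0.0241 in control cells. With guide 1 alone 30 members were lower and 5 higher, beside 25.1% and 26.9% of all genes, and with guide 2 alone 31 were lower and 5 higher, beside 26.9% and 28.1%. Both guides were set against the same 3 control libraries.

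HK2 (ENSG00000159399, chromosome 2, 74833981 to 74893359, plus strand) fell most among the glycolysis genes. It had 86.4, 86.4 and 87.3 CPM with guide 1 and 69.1, 68.5 and 69.9 CPM with guide 2, against 184, 191 and 183 CPM in control cells. All 6 knockout libraries lay below all control libraries, and the level was 41.7% of control (log2 -1.26 ± 0.027, adjusted p = 1.1e-37). PDK1 had 21.6, 20.6 and 20.7 CPM with guide 1 and 17.8, 18.2 and 17.9 CPM with guide 2, against the 39.2, 36.6 and 40 CPM of control cells, again without overlap (log2 -0.99 ± 0.054). ALDOC, the aldolase known from brain, changed by -0.70 ± 0.032, ALDOA by -0.65 ± 0.036, LDHA by -0.64 ± 0.022, GAPDH by -0.61 ± 0.025, PGK1 by -0.57 ± 0.023 and ENO1 by -0.53 ± 0.026. The remaining called falls among the glycolysis genes lay between log2 -0.43 for HK1 and -0.12 for SLC2A1, which stood at 0.00 and was not called with library totals alone. They include PDK3 (-0.40 ± 0.045) and PFKL (-0.37 ± 0.037). ENO2 was the gene not called (log2 -0.04 ± 0.03). SLC16A3, the MCT4 lactate exporter, was the one that rose, with 17.7, 18.7 and 18.1 CPM with guide 1 and 19.8, 20.7 and 21.9 CPM with guide 2, against 13, 12.9 and 11.2 CPM in control cells (log2 0.65 ± 0.064, no overlap). SLC16A3 shares 5.4% of its exon bases with CSNK1D on the opposite strand, which changed by log2 0.44 ± 0.025 in the same comparison.

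In the hypoxia arm the knockout in DMSO moved single genes by far more. EPAS1 had 25.7, 27.8 and 26.1 CPM with guide 1 and 35.3, 34.2 and 32.1 CPM with guide 2, against 7.21, 7.8 and 7.33 CPM in control cells. The rise was 4.02-fold (log2 2.01 ± 0.052, adjusted p = 3.9e-34), and no knockout library came near the control libraries. STC1 had 208, 207 and 209.7 CPM with guide 1 and 271, 263 and 259.7 CPM with guide 2, against 25.4, 24.3 and 25.7 CPM in control cells, 9.34-fold higher (log2 3.22 ± 0.04). CA12 rose 3.31-fold from a low level, with means of 1.15 CPM with guide 1 and 1.72 CPM with guide 2, against 0.426 CPM in control cells. CA9 ran opposite to CA12, with 1.07, 0.873 and 0.933 CPM with guide 1 and 0.662, 0.928 and 0.626 CPM with guide 2, against 3.61, 3.59 and 3.49 CPM in control cells (log2 -2.08 ± 0.13). ARHGEF39, which overlaps CA9, changed by log2 -0.23 ± 0.066 there. DDIT4 had 42.2, 43.7 and 43.2 CPM with guide 1 and 26.1, 28.6 and 26.5 CPM with guide 2, against 96, 94.4 and 97.5 CPM in control cells. Each guide stood apart from control, and guide 2 stood below guide 1 (knockout effect log2 -1.49 ± 0.034). P4HA1 changed by -0.84 ± 0.032, BNIP3 by -0.72 ± 0.034, KDM3A by -0.55 ± 0.028, VEGFA by -0.47 ± 0.041 and HIF1A by -0.35 ± 0.026. STC2 rose by 0.41 on the log2 scale, while NDRG1 fell by 0.14 (not called at -0.01 with library totals alone). ANKRD37 stood at 0.26 ± 0.11, a call lost without any 1 of 6 libraries, replicates 2 and 3 of each population, at values between 0.19 and 0.27. EGLN1, EGLN3, ADM and BNIP3L were not called, with ADM at log2 -0.17 ± 0.085.

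**Figure D4:**
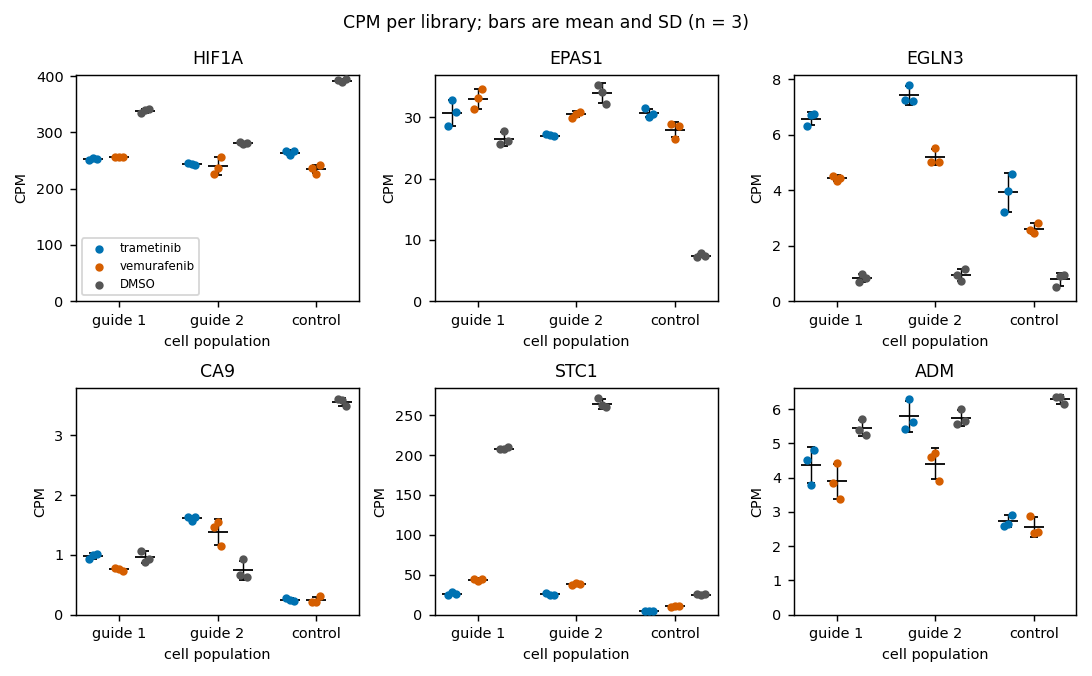
CPM of 6 genes of the hypoxia arm per library, with the mean and SD of the 3 libraries of each group, for guide 1, guide 2 and control cells on the x axis and the treatments in colours. EPAS1 is low only in control DMSO libraries, CA9 is high only there, and STC1 is highest in knockout DMSO libraries.

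Under either drug, LDHA, ENO1, PGK1 and PDK1 lay near the control level in knockout cells, while HK2, GAPDH and other members stayed lower. The markers of the melanoma and fibroblast lists, summed above, also differed between knockout and control libraries given a drug, and their part in these differences was not tested. With trametinib 14 members were higher and 17 lower in knockout cells, beside 27.1% and 28.8% of all genes, and with vemurafenib 20 were higher and 17 lower, beside 27.3% and 28.3%. With library totals alone the counts were 14 members lower and 22 higher in trametinib and 13 members lower and 23 higher in vemurafenib. The median member stood at -0.01 and 0.01. LDHA had 460.2, 482 and 481 CPM with guide 1 and 486, 494 and 488 CPM with guide 2 in trametinib, against 445, 452 and 461 CPM in control cells (log2 0.09 ± 0.023). In vemurafenib LDHA stood at 0.07 ± 0.023 on the log2 scale, so its levels in knockout cells were close to or slightly above those of control cells under both drugs. ENO1 was not called with either drug (log2 0.00 ± 0.026 and -0.02 ± 0.026). PGK1 stood at 0.05 ± 0.024 in trametinib, which was called only without control replicate 3 (0.07) or guide 1 replicate 1 (0.06) among the libraries left out, and at 0.09 ± 0.024 in vemurafenib, which was called. PDK1 stood at 0.03 ± 0.062 in trametinib, not called. In vemurafenib PDK1 stood at 0.15 ± 0.062, a call lost at 0.11 to 0.15 without control replicate 2, control replicate 3, guide 1 replicate 1 or guide 2 replicate 3. PFKP was higher in knockout cells with both drugs (log2 0.35 ± 0.031 and 0.36 ± 0.031), as were SLC2A1 (0.27 ± 0.03 and 0.21 ± 0.031) and SLC16A3 (0.47 ± 0.071 and 0.44 ± 0.072).

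Other members kept the deficit of the knockout in both drugs. HK2 had 47.4, 46.5 and 46.1 CPM with guide 1 and 39.3, 39.4 and 38.5 CPM with guide 2 in trametinib, against 97.8, 95.8 and 97.1 CPM in control cells. No library overlapped, and the difference was log2 -1.18 ± 0.028 in trametinib and -1.08 ± 0.028 in vemurafenib. GAPDH stood at -0.47 ± 0.025 and -0.49 ± 0.025, and ALDOA at -0.34 ± 0.037 and -0.36 ± 0.037. PFKFB4 lay further apart under the drugs than in DMSO. It had 110.4, 116 and 111 CPM with guide 1 and 86.4, 91.5 and 94.9 CPM with guide 2 in trametinib, against 188, 178 and 194 CPM in control cells, so the knockout effect was -0.88 in trametinib and -0.85 in vemurafenib, against -0.41 in DMSO. PFKFB4 shares 4.7% of its exon bases with UCN2 on the same strand, which changed by log2 -3.16 ± 0.062 in the trametinib comparison. ENO2, not called in DMSO, was lower in knockout cells at -0.66 ± 0.029 in trametinib and -0.47 ± 0.03 in vemurafenib. DDIT4 (49.9% and 45.3% of control), P4HA1 (log2 -0.77 and -0.71) and KDM3A (log2 -0.79 and -0.87) stayed lower too.

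Several hypoxia targets, and the hydroxylase EGLN3, were higher in knockout cells under drug, while others were lower. Beside DDIT4, P4HA1 and KDM3A above, the lower ones in trametinib included VEGFA, at a mean of 20 CPM against 25.7 CPM in control cells. NDRG1 averaged 107 against 138 CPM there, and ANKRD37 2.1 against 3.62 CPM. CA9 had 0.922, 1 and 1.02 CPM with guide 1 and 1.64, 1.57 and 1.64 CPM with guide 2 in trametinib, against 0.281, 0.241 and 0.231 CPM in control cells, and its counts were 119, 123 and 140 with guide 2 against 23, 20 and 17 in control cells. The sign of the CA9 difference was therefore opposite to that in DMSO, at 2.32 ± 0.19 in trametinib and 2.09 ± 0.2 in vemurafenib. STC1 stood 5.3-fold and 3.94-fold higher in knockout cells in trametinib and vemurafenib, and CA12 3.47-fold and 4.36-fold higher, at means of 1.1 and 1.27 CPM with guides 1 and 2 in trametinib against 0.338 CPM in control cells. EGLN3, not called in DMSO, was higher under both drugs (0.84 ± 0.1 and 0.88 ± 0.11), as were STC2 (0.93 ± 0.084 and 0.92 ± 0.083) and ADM (0.89 ± 0.095 and 0.69 ± 0.097). EPAS1 was not called in trametinib (-0.09 ± 0.042, called at -0.11 without guide 1 replicate 2) and was slightly higher in vemurafenib (0.18 ± 0.043), beside the DMSO difference of 2.01.

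**Figure D5:**
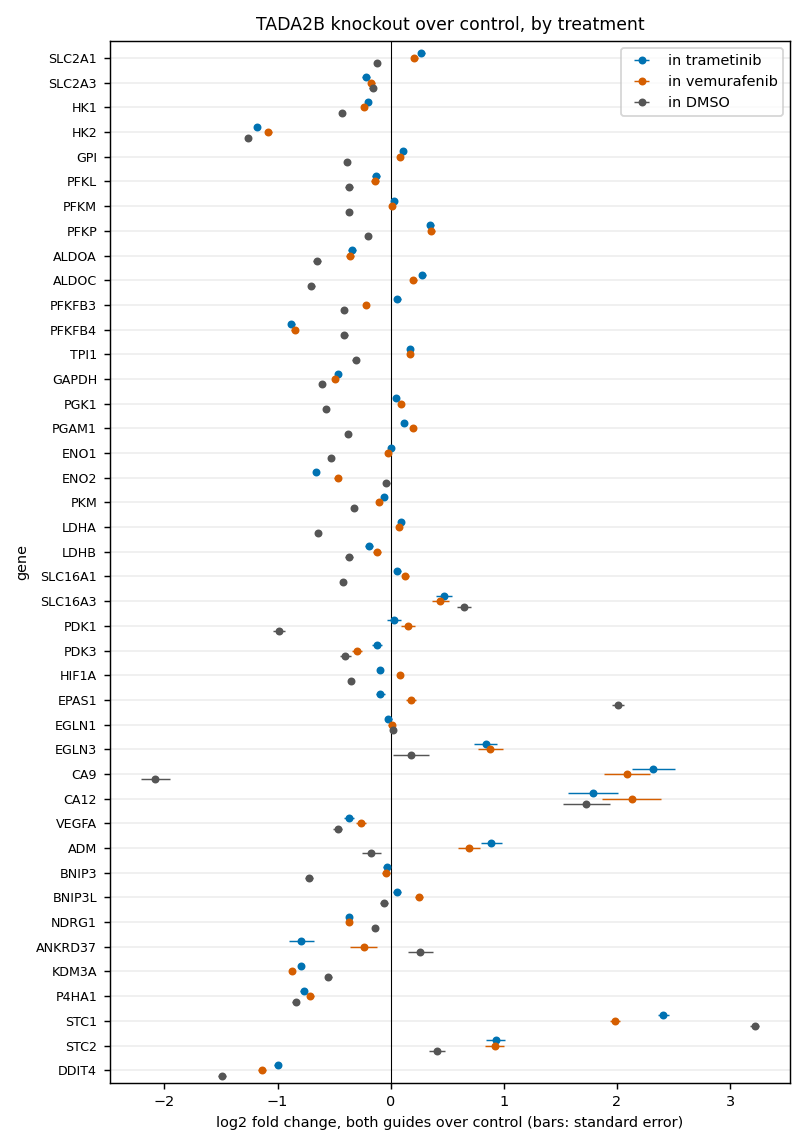
log2 fold change of each member in knockout cells (mean of both guides) over control cells, with standard errors as bars, in trametinib, vemurafenib and DMSO. LDHA, ENO1, PGK1 and PDK1 sit left of 0 in DMSO and near 0 in both drugs, HK2 and DDIT4 stay left of 0 in all treatments, and CA9 is left of 0 in DMSO and right of it in the drugs.

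The difference between the responses was tested directly, as the knockout response minus the control response. It was positive and called for 28 members and negative for 7 with trametinib, where 20.8% and 23.2% of all genes were called in those directions, and for 30 and 7 with vemurafenib, beside 20.0% and 22.4%. Of the 25 glycolysis and transport genes 20 were positive with each drug. These differences share the DMSO libraries with the knockout effect in DMSO, so a low level there enters both. PDK1 ranked first among them, at 1.03 ± 0.082 with trametinib and 1.14 ± 0.083 with vemurafenib. ALDOC changed sign, since it fell with trametinib in control cells (log2 -0.31) and rose in knockout cells (log2 0.67 ± 0.027). Its levels in trametinib and DMSO were 60.9, 63.6 and 59.7 and 41.9, 41.8 and 39.7 CPM with guide 1, 63, 64.4 and 65.1 and 37.4, 38.4 and 37.8 CPM with guide 2, and 50.3, 50.9 and 53.5 and 62.8, 62.8 and 66.2 CPM in control cells. PFKM had a difference of 0.40 ± 0.039 with trametinib. PFKFB4 and ENO2 were the glycolysis genes with a negative difference that was called (-0.47 ± 0.046 and -0.62 ± 0.042 with trametinib). SLC16A3 and SLC2A3 stood at -0.19 and -0.05 with trametinib, not called, though SLC2A3 was called with guide 2 alone (-0.23).

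In the hypoxia arm the extremes were CA9, at 4.39 ± 0.23 with trametinib and 4.16 ± 0.24 with vemurafenib, and EPAS1, at -2.10 ± 0.066 and -1.83 ± 0.066. CA9 fell with trametinib in control cells and rose by 0.58 ± 0.12 in the mean of both guides. With guide 2 all CA9 values in trametinib lay above those in DMSO, while with guide 1 they overlapped. The CA9 difference of response to trametinib was 3.85 ± 0.27 with guide 1 and 4.93 ± 0.26 with guide 2. EPAS1, which rose 4.11-fold in control cells, was not called in knockout cells with trametinib (-0.06 ± 0.035, called at -0.08 without guide 1 replicate 2 in trametinib). ADM fell by 0.44 with vemurafenib in knockout cells and by 1.30 in control cells, a difference of 0.86 ± 0.13, and the difference with trametinib was 1.06 ± 0.13. ANKRD37 fell with trametinib in knockout cells (-0.88 ± 0.095) and was not called in control cells, a difference of -1.05 ± 0.16. It shares 35.2% of its exon bases with UFSP2 on the opposite strand, whose own difference was -0.29 ± 0.054. STC1, whose level in DMSO was 9.34-fold that of control cells, fell more in knockout cells, by 3.19 with trametinib and 2.51 with vemurafenib on the log2 scale (differences -0.82 ± 0.065 and -1.24 ± 0.057).

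Within knockout cells the drugs still lowered most of the set. With trametinib 30 members fell and 7 rose, beside 34.3% and 37.2% of all genes, and with vemurafenib 31 fell and 8 rose, beside 33.1% and 36.0%. With library totals alone the counts were 26 members lower and 12 higher with trametinib and 29 members lower and 13 higher with vemurafenib. The median member stood at -0.32 and -0.43, against 0.04 over all genes. SLC2A3 changed by -1.67 ± 0.028 with trametinib and -0.80 ± 0.027 with vemurafenib, SLC16A3 by -1.24 ± 0.052 and -1.30 ± 0.053, HK2 by -0.86 ± 0.024 and -0.99 ± 0.024, PFKFB3 by -1.20 ± 0.023 and -0.91 ± 0.023, LDHA by -1.11 ± 0.019 and -1.01 ± 0.019, and STC2 by -1.23 ± 0.059 and -1.09 ± 0.059, while ENO1 stood at 50% and 51% of its level in DMSO. EGLN3 rose 7.82-fold and 5.37-fold, more than in control cells by 0.65 ± 0.19 and 0.69 ± 0.2, the first of which was not called without control DMSO replicate 3 (0.52, adjusted p = 0.054). DDIT4 rose in knockout cells (0.34 ± 0.03 and 0.31 ± 0.03), and PFKM did so slightly (0.25 ± 0.023 and 0.23 ± 0.023). BNIP3L rose by 0.32 ± 0.028 and NDRG1 changed by -0.57 ± 0.023 with vemurafenib.

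The drugs themselves were compared next. In control cells 7 members were higher and 8 lower with vemurafenib than with trametinib, and 27 were not called, beside 8.78% and 7.56% of all genes. With library totals alone the counts in control cells were 12 members lower and 6 higher. In knockout cells 12 were higher and 9 lower, beside 10.9% and 8.29%. SLC2A3 had 62.8, 56.6 and 58.9 CPM with vemurafenib, against 34.2, 33.2 and 32.8 CPM with trametinib, in control cells. These libraries did not overlap, and the difference was log2 0.83 ± 0.039 in control and 0.88 ± 0.028 in knockout cells. STC1 was 2.14-fold higher with vemurafenib in control cells and 1.59-fold higher in knockout cells, and PFKFB3 stood at 0.57 ± 0.033 and 0.30 ± 0.023. EGLN3 (-0.58 ± 0.13 and -0.54 ± 0.08), NDRG1 (-0.42 ± 0.032 and -0.42 ± 0.023), VEGFA (-0.40 ± 0.05 and -0.29 ± 0.036), ENO2 (-0.39 ± 0.034 and -0.21 ± 0.025) and SLC2A1 (-0.22 ± 0.035 and -0.28 ± 0.024) were lower with vemurafenib. CA12 was lower as well in control cells (-1.02 ± 0.32), on counts of 18, 14 and 7 with vemurafenib against 24, 34 and 23 with trametinib, and that call was lost without replicate 2 of trametinib (log2 -0.85, adjusted p = 0.13) or replicate 3 of vemurafenib (log2 -0.72, adjusted p = 0.17). Smaller called differences of the drugs in control cells were 0.15 ± 0.027 for HK1, -0.23 ± 0.032 for HK2, 0.23 ± 0.029 for PKM, 0.11 ± 0.026 for LDHA and -0.17 ± 0.03 for HIF1A.

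The guides were also set against each other. Between guide 2 and guide 1, 3 members were higher and 17 lower with guide 2 in DMSO, beside 4.64% and 7.29% of all genes. In trametinib 7 were higher and 11 lower, beside 10.8% and 8.91%, and in vemurafenib 3 and 13, beside 7.12% and 8.85%. With library totals alone the counts were 11 members lower and 6 higher in DMSO and 10 members lower and 6 higher in vemurafenib. DDIT4 differed most among the called members in DMSO, at -0.67 ± 0.043, and stayed lower with guide 2 in trametinib (-0.68 ± 0.041) and vemurafenib (-0.72 ± 0.042). P4HA1 was lower with guide 2 in each treatment (-0.44 in DMSO, -0.22 in trametinib and -0.28 in vemurafenib), as were HK2 (-0.33, -0.26 and -0.31), PFKFB4 (-0.25, -0.31 and -0.27), KDM3A (-0.13, -0.25 and -0.29, the first not called with library totals alone) and NDRG1 (-0.24, -0.27 and -0.24). CA9 was higher with guide 2 under the drugs (0.72 ± 0.16 in trametinib and 0.88 ± 0.18 in vemurafenib) and was not called in DMSO (-0.36 ± 0.18). EPAS1 was higher with guide 2 in DMSO (0.35 ± 0.049), as was STC1 (0.34 ± 0.037), and EGLN1 was higher with guide 2 in trametinib (0.16 ± 0.035).

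Set against each other per kilobase of exon, the isoforms kept one order in every group for most families. LDHA outweighed LDHB in all 9 groups, at 72.9 against 16.6 CPM per kilobase in control cells with trametinib and 261 against 25.6 in DMSO. LDHB shares 33.4% of its exon bases with a same-strand gene, AC010197.2, so some of its reads could be lost to ambiguity and its level understated. ENO1 stood above ENO2 by 12.1 times in control cells with trametinib and 44.1 times in DMSO. SLC2A1 stood above SLC2A3, by 4.79 times in control cells with trametinib, 2.30 times with vemurafenib and 2.45 times in DMSO. SLC16A1 stood above SLC16A3, HK1 above HK2, HIF1A above EPAS1, EGLN1 above EGLN3 and STC1 above STC2 in all 9 groups. PDK3 stood above PDK1 and CA9 above CA12 in all 9 as well. In CPM, without length, PDK1 led PDK3 in control DMSO and CA12 led CA9 in knockout DMSO groups. Exon bases were 14883 for PDK1, 4951 for PDK3, 1670 for CA9 and 7313 for CA12. CA9 also shares 38.5% of its exon bases with ARHGEF39. BNIP3L stood above BNIP3 in all 9 groups, by 1.15 times in control DMSO, where using the longest transcript as length reversed the order. BNIP3 has 39 named pseudogenes and BNIP3L 0, and their part was not tested. HIF1A exceeded EPAS1 by 18.1 times with guide 1 and 11.8 times with guide 2 in DMSO, against 74.7 times in control cells. The order depended on treatment in a pair of families. PFKFB4 stood above PFKFB3 in the 6 drug groups and below it in the 3 DMSO groups, and PFKP led the phosphofructokinase subunits in the 3 DMSO groups and PFKM in the 6 drug groups. In knockout cells in DMSO the aldolases lay so close that libraries of these 2 groups differed in their order, with ratios of 1.01 with guide 1 and 1.06 with guide 2. In the other groups ALDOC stood above ALDOA in every library, by up to 2.19 times with guide 2 in trametinib. ALDOA shares 42.3% of its exon bases with a same-strand gene, which could lower its counted level.

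Other genes of these pathways, given as lists, moved in both directions. Beside their counts stand 36.4% of all genes higher and 32.5% lower with trametinib in control cells, 35.7% and 31.6% with vemurafenib, and 29.3% and 28.6% with the knockout in DMSO. Of 27 other isoforms of glycolytic enzymes and transporters, 20 had enough counts, of which 14 rose and 3 fell with trametinib in control cells and 15 rose and 3 fell with vemurafenib. HKDC1, an enzyme related to the hexokinases, averaged 41.8 CPM with trametinib against 11.7 CPM in DMSO (log2 1.83 ± 0.057), and SLC16A4, a member of the monocarboxylate transporter family, 135 against 33.7 CPM (log2 2.00 ± 0.039). In DMSO, HKDC1 fell to 5.9 CPM in knockout cells, against 11.7 CPM in control cells, SLC16A4 rose (log2 1.33 ± 0.035), and 10 of the 20 rose and 5 fell. Of 13 genes of pyruvate fate, 10 fell and 2 rose with trametinib. PDK4, another kinase of pyruvate dehydrogenase, changed by -1.02 ± 0.044 with trametinib in control cells and by 1.14 ± 0.037 in knockout cells in DMSO, where PDK1 fell. Of 16 genes of the pentose phosphate and glycogen routes, 10 fell and 4 rose with trametinib, and 10 fell and 5 rose in knockout cells in DMSO. PYGB, brain glycogen phosphorylase, changed by -1.51 ± 0.03 with trametinib and -0.97 ± 0.025 with the knockout, PYGL, the liver form, rose with trametinib (1.12 ± 0.029), and TKT, transketolase, fell with the knockout (-0.63 ± 0.026).

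Of 15 regulators of the HIF pathway, 14 were tested, and 7 rose and 6 fell with trametinib, while 2 rose and 4 fell with the knockout in DMSO. These shares, and those of the lists that follow, are to be read against the shares of all genes just given. ARNT2, a partner of the HIF alpha subunits, changed by -1.64 ± 0.037 with trametinib and -0.84 ± 0.03 with the knockout, and CITED2, which competes with HIF for its coactivators, rose with trametinib (1.18 ± 0.035). Of 35 further hypoxia targets, 14 rose and 17 fell with trametinib, and 17 rose and 11 fell with the knockout in DMSO. IGFBP3, a carrier of insulin-like growth factors, averaged 0.92 CPM with trametinib against 40.6 CPM in DMSO (log2 -5.45 ± 0.089), and HMOX1, haem oxygenase, 75.6 against 11.1 CPM (log2 2.76 ± 0.05). Of 14 glucose-sensing and energy regulators, 5 rose and 5 fell with trametinib. TXNIP, a glucose-responsive brake on glucose uptake, averaged 441 CPM with trametinib and 457 CPM with vemurafenib, against 45.8 CPM in DMSO (log2 3.27 ± 0.036 and 3.32 ± 0.036), and rose only slightly with the knockout in DMSO (log2 0.27 ± 0.031). MYC, a transcription factor known to drive glycolytic genes, averaged 1.37 CPM with trametinib against 23 CPM in DMSO, and 9.97 CPM in knockout cells against 23 CPM in control cells in DMSO (log2 -4.07 ± 0.11 and -1.22 ± 0.074). PPARGC1A, a coactivator of mitochondrial genes, rose with trametinib (3.19 ± 0.11) and with the knockout in DMSO (2.70 ± 0.11).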

How the data were processed

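RNA was measured in 27 libraries of A375 cells, in 9 groups of 3. Per the labels' protocols, the cells grew in DMEM with FBS, RNA was purified on QIAGEN RNeasy Plus Mini columns and made into polyA libraries by the KAPA stranded kit. The submitters' processing notes name bcl2fastq, HISAT2 and HTSeq with hg38, without versions or order. The annotation release and the strand setting were not given in the sources used here. The authors deposited raw, whole-number read counts per gene. All 58721 gene IDs were found in GENCODE release 29, which gave names, exon lengths and hg38 coordinates, 0 rows named no gene, and 12466 rows held no count.

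CPM values were computed here with edgeR 4.0.16 (R 4.3.3) from library totals times TMM factors (0.866 to 1.09). filterByExpr left 25199 genes. Differences were tested by edgeR's quasi-likelihood method with robust dispersion, fitted to all 27 libraries as 9 group means (18 residual degrees of freedom), with Benjamini-Hochberg adjustment over all genes tested, and a gene was called at an adjusted p under 0.05. The procedure was tested on simulated data. The knockout effect is the mean of both guides minus control. Errors are standard errors for log2 fold changes and SD for levels. Changes are relative to the bulk of each library, and would not show a shift of the whole RNA content per cell. Chi-square per degree of freedom between libraries of a group was 3.05 to 13.2, so none was counted as a copy of another.

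The members, lists and tests were chosen with earlier results of these data known. By the rule for names, most members are named in the comparison where they changed most, and per comparison up to 10 called members with the largest change that average at least 1 CPM, those of the differences of response partly in the closing section. Groups came from the titles and the genotype and treatment labels. Alternatives were DESeq2 1.42.0 size factors and Wald test, library totals alone, limma 3.58.1 voom, no low-count filter, only the groups compared, a replicate block, each guide alone, and leaving out each library. Promoter letters came from RefSeq on GRCh38.p14, with no entry used for SLC2A3, SLC16A1, VEGFA, BNIP3L, NDRG1 and STC1.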

Additional observations from a re-analysis of the deposited data

Results flagged for a closer look

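The following members are given again because the response of knockout cells differed from that of control cells, by a test of that difference (edgeR's quasi-likelihood test, both guides averaged, log2 of knockout minus control response). With trametinib the value was 4.39 for CA9, -2.10 for EPAS1, 1.06 for ADM, -1.05 for ANKRD37, 1.03 for PDK1, 0.98 for ALDOC, -0.82 for STC1, 0.73 for LDHA, 0.70 for BNIP3, 0.65 for EGLN3, -0.62 for ENO2, -0.47 for PFKFB4 and 0.40 for PFKM. With vemurafenib it was 4.16 for CA9, -1.83 for EPAS1, -1.24 for STC1, 1.14 for PDK1, 0.90 for ALDOC, 0.86 for ADM, 0.72 for LDHA, 0.69 for EGLN3, 0.68 for BNIP3 and 0.66 for PGK1. For CA9 and ALDOC the trametinib response was positive in the mean of both guides and negative in control cells. For CA9 the positive response was seen with guide 2, while the guide 1 libraries in trametinib overlapped those in DMSO. ARHGEF39, which shares exon bases with CA9, had a difference of 0.46 ± 0.1 with trametinib and 0.38 ± 0.1 with vemurafenib, and its part in the CA9 value was not tested.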

How the results depend on the processing

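The largest dependence was on the scale. Library totals alone, with no TMM factor, gave 9 members called higher for vemurafenib in control cells (4 with TMM), 12 for trametinib (7) and 13 for vemurafenib (8) in knockout cells, 22 for the knockout in trametinib (14), and for guide 2 over guide 1 gave 6 higher in DMSO (3), 11 lower in DMSO (17) and 6 higher in vemurafenib (3). It moved the median of all genes to 0.24 and 0.22 for trametinib and vemurafenib in control cells, 0.21 and 0.18 in knockout cells, and 0.13 for the knockout in DMSO. The share of all called genes that were higher became 63.9% against 52.9% for trametinib and 63.3% against 53.0% for vemurafenib in control cells, 65.3% against 52.0% and 64.5% against 52.1% in knockout cells, 66.3% against 50.6% for the knockout in DMSO, 63.6% against 48.4% in trametinib and 64.6% against 49.1% in vemurafenib, 42.5% against 53.7% and 44.1% against 56.7% for vemurafenib over trametinib in control and knockout cells, and 63.9% against 38.9% and 59.5% against 44.6% for guide 2 over guide 1 in DMSO and vemurafenib. Under it the sign turned for trametinib in control cells in PFKM (0.03), EGLN1 (0.09) and DDIT4 (0.04), for vemurafenib in ENO2 (0.10) and ANKRD37 (0.06), for trametinib in knockout cells in EPAS1 (0.11), and for the knockout in SLC2A1 (0.00) and ENO2 (0.09) in DMSO, EPAS1 (0.02) in trametinib and ENO1 (0.09) in vemurafenib. Values near 0 that were not called also turned with guide 1 alone, for the knockout in trametinib, in PDK1 (-0.04) and EPAS1 (0.00). They turned without single libraries in ENO1 (-0.01 without control replicate 1 or 2 or guide 1 replicate 2, and -0.00 without guide 1 replicate 3 or guide 2 replicate 2), PDK1 (-0.01 without control replicate 2 or 3, over a range to 0.12), and, with vemurafenib in control cells, ANKRD37 (0.02 without vemurafenib replicate 1, over a range to -0.19). Members higher with guide 2 in DMSO numbered 5 with limma voom and 5 with only the groups compared. With each gene's longest transcript as its length, the order within the aldolases and within the BNIP3 pair held in 8 of 9 groups each. The cause was not tested.

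Leaving out single libraries moved no count by over 1.5 times, and moved most the counts of vemurafenib over trametinib, 6 to 10 higher in control cells (7 with all libraries) and 8 to 14 in knockout cells (12), and of guide 2 over guide 1 in DMSO, 12 to 14 lower (17) and 2 higher (3). Members lower ranged over 32 to 33 and 32 to 33 for trametinib and vemurafenib in control cells and 31 throughout for the knockout in DMSO, and positive differences of response over 26 to 28 and 29 to 30. Replicate numbers did not pair the libraries: deviations of same-numbered libraries correlated at -0.0531 to 0.0545 over 108 pairs, 10 of 27 libraries correlated best with their own number, and with the replicate number as a block the members called were 33 lower and 7 higher for trametinib and 32 lower and 4 higher for vemurafenib in control cells and 31 lower and 6 higher for the knockout in DMSO. Of 3270 gene values without single libraries, 20 lost and 4 gained a call. CA9, CA12 and EGLN3 rest on few counts in some groups, which limits their precision.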
